A study of Mus musculus with 8 samples.

Results

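The genes described here encode the kinases that sense DNA damage and pass the signal on (Atm, Atr, Chek1 and Chek2), the adaptors that couple ATR to CHK1 (Topbp1 and Clspn), the WEE1 kinase, and the CDC25 phosphatases (Cdc25a, Cdc25b and Cdc25c). They were listed by name and function, with no threshold on measured values but with earlier results of these data known, and are 10 of the 27179 genes in the count table. All 10 passed the filter on low counts and were among the 17700 genes tested. RNA was sequenced from early large pre (eLPre)- and small pre (sPre)-B cells sorted from mouse bone marrow, with 2 libraries in each of 4 groups. Ctrl mice were Upf1 Flox/Flox, Mb1 +/+ and Igh B1-8hi/+, and cKO mice were Upf1 Flox/Flox, Mb1 Cre/+ and Igh B1-8hi/+. All groups thus carried the floxed alleles of Upf1, an RNA helicase of mRNA decay, together with a prerearranged heavy chain knocked into Igh. Cre was expressed from Mb1 (Cd79a), which is active in the B lineage, so that deletion was limited to B cells. The mice were adult, age-matched and of either sex, per the study's methods. Early LPre-B cells were gated as large CD43+ CD2- cells and sPre-B cells as small CD43lo CD25+ CD2+ cells, both negative for surface IgM.

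ATR is recruited to single-stranded DNA at stalled replication forks, is activated by TOPBP1, and phosphorylates CHK1 with the help of claspin, the product of Clspn. ATM responds to double-strand breaks, among them those that the RAG recombinase makes in developing lymphocytes, and acts through CHK2. CHK1 and CHK2 inhibit the CDC25 phosphatases, which remove the inhibitory phosphate that WEE1 places on cyclin-dependent kinases, so the balance of WEE1 and CDC25 sets when a cell enters S phase or mitosis. Large pre-B cells are known to cycle and small pre-B cells to be mostly at rest.

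In Ctrl mice, 9 of the 10 genes had lower RNA in sPre- than in eLPre-B cells, with Chek1 and Clspn falling the most (16.0-fold and 14.4-fold). In the cKO-labelled libraries the same comparison also gave 9 lower genes, and in each genotype 31.1% of all genes tested were lower. Between the genotypes, Cdc25b was the only one of the 10 to pass the edgeR quasi-likelihood test as lower in cKO-labelled libraries, and it did so at both stages (3.19-fold in eLPre-B cells and 2.62-fold in sPre-B cells). Wee1 was also lower in cKO-labelled eLPre-B cells, without overlap, but passed only under some of the alternative fits. Atr was higher in the cKO-labelled libraries at both stages (1.66-fold and 1.78-fold), whereas Chek1, Clspn, Cdc25c, Wee1 and Cdc25a passed the test in sPre-B cells and not in eLPre-B cells. The difference between the stages in the effect of genotype itself passed the test for Chek1 and Wee1, and did not for Clspn, Cdc25c and Cdc25a. Neither passed without both Ctrl replicate 2 libraries, and Wee1 failed in 7 of 8 fits that left out a single library.

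Promoter sequences are shown for 6 of the genes. Clspn, Cdc25a, Chek2 and Topbp1 are the genes whose window held an E2F word. Chek1 fell the most between the stages in Ctrl and held no whole match to the words searched. Cdc25b was the gene lower in cKO-labelled libraries at both stages. They were taken from RefSeq (GRCm38.p6, the assembly behind mm10), which matched 8 of the 10 genes and not Wee1 or Cdc25c. Each window has 300 bases, 250 before and 50 after the start site of the table, and is written 5′ to 3′ on the strand of the gene. This start site can differ from the start of the gene span given below. The Cdc25b window, for example, begins at base 131186698 of chr2, inside a span that begins at base 131186436. Only 1 start site was searched per gene. Capitals mark matches on either strand to E2F words (TTTCCCGC, TTTGGCGC, TTTCGCGC or TTTGCCGC), to the cell cycle homology region (CHR, TTTGAA or TTCGAA) and to the CCAAT box (CCAAT). No match overlapped a match to another motif.
Clspn, chr4:126556730-126557029, plus strand: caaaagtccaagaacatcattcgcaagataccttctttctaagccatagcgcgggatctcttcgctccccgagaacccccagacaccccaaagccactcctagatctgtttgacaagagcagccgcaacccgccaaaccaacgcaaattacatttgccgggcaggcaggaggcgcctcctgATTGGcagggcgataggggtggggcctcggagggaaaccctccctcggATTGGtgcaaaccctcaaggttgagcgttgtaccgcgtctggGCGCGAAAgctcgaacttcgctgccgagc
Cdc25a, chr9:109875329-109875628, plus strand: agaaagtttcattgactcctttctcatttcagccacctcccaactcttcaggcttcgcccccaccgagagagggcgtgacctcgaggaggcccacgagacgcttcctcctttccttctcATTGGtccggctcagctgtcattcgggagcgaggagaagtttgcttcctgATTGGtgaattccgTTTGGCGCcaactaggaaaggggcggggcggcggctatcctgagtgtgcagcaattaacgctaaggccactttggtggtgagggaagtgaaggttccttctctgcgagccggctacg
Chek2, chr5:110839733-110840032, plus strand: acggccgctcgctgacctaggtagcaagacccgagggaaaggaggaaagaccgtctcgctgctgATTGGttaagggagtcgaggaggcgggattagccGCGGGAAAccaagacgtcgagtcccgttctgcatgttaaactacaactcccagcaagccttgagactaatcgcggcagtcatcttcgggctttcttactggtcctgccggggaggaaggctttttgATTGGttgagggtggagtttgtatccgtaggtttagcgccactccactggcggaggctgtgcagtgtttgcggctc
Topbp1, chr9:103305077-103305376, plus strand: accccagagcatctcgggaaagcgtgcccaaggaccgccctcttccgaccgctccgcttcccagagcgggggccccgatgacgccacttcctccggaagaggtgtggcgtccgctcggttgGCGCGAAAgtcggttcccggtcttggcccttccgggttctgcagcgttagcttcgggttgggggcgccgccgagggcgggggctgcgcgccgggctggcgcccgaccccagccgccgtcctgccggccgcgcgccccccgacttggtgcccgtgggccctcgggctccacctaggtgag
Cdc25b, chr2:131186698-131186997, plus strand: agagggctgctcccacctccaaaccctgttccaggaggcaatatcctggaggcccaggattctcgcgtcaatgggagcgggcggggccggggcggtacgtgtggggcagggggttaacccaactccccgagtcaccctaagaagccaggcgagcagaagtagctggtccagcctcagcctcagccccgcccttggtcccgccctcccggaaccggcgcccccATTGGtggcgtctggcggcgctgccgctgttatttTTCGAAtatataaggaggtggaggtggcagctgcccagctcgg
Chek1, chr9:36726609-36726908, minus strand: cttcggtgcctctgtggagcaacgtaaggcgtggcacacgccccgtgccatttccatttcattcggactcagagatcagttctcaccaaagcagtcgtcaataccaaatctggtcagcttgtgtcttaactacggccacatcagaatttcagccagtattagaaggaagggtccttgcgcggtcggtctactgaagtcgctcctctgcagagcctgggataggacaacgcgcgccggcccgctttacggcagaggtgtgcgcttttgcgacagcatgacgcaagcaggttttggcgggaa

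An E2F word was found in the windows of Clspn, Cdc25a, Chek2 and Topbp1, that is in 4 of 8 genes, where 2.26% of all 32851 promoters of this length and 2.6% of the 27025 genes with such a promoter held one. In Cdc25a the word lay 67 bases before the start site (TTTGGCGC, on the strand of the gene), and in Chek2 it lay 152 bases before it (TTTCCCGC, on the opposite strand). Topbp1 and Clspn held TTTCGCGC on the opposite strand, from base -129 in Topbp1 and from base 22 after the start in Clspn. The CHR word TTCGAA was found in 2 genes, at base 8 after the start in Cdc25b and at base -215 in Atr, against 21.7% of genes and 19.2% of all promoters for both CHR words. A CCAAT box was found in 5 of the 8 genes (Atm, Chek2, Cdc25a, Cdc25b and Clspn), against 41.1% of genes and 37.4% of all promoters. Chek2, Cdc25a and Clspn held 2 CCAAT boxes each. Chek1 held none of these words whole in its window. That window ends in gcgggaa, which is GCGGGAAA (TTTCCCGC on the opposite strand) without its last letter. A match across the end of a window could not be found, and other spellings of these motifs were not searched. These are matches of letters and were not tested as binding sites.

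Library totals lay between 68516857 and 160426338 counts, so that 3 counts, taken as the smallest level that could be shown, corresponded to 0.0217 to 0.0426 CPM (counts set relative to library size, using edgeR's TMM factors). This limit covers counting error only. The gene-level count of Upf1 was not lower in the cKO-labelled libraries (Log2FC = 0.16 in eLPre-B and 0.59 in sPre-B cells), and since most of its exons lie outside the deleted block, it says little about the label. Cd79a, the Mb1-Cre locus, was lower in the cKO-labelled libraries (Log2FC = -1.77 and -2.08, edgeR, adjusted P = 1.57e-04 and 7.05e-05). The sPre markers Il2ra and Cd2 summed to 631 to 667 CPM in the 4 sPre libraries and to 23.5 to 59.3 CPM in the 4 eLPre libraries. The early LPre markers Kit and Spn summed to 199 to 217 CPM in Ctrl eLPre and 124 to 140 CPM in cKO-labelled eLPre libraries, and to 49.2 to 63.0 CPM in the sPre libraries. Of other cell types, T cell markers summed to at most 1.76 CPM in any library, and the sums of erythroid, plasma cell and myeloid markers lay lower in the cKO-labelled than in the Ctrl libraries of each stage. Erythroid markers summed to 10.1 to 10.9 CPM in Ctrl and 2.56 to 6.47 CPM in cKO-labelled eLPre libraries, and to 17.6 to 20.6 and 6.12 to 10.3 CPM in sPre libraries. Plasma cell markers summed to 73.1 to 88.1 CPM in Ctrl and 40.7 to 46.0 CPM in cKO-labelled eLPre libraries, and to 62.1 to 92.9 and 30.5 to 48.3 CPM in sPre libraries. Nearly all of this plasma cell sum was Sdc1 (30.2 to 90.6 CPM over the libraries), with Jchain, the other marker, at 0.115 to 2.32 CPM. Myeloid markers summed to 45.2 to 126 CPM in eLPre and to 201 to 322 CPM in sPre libraries. Most of this sum was Itgam, at 30.4 to 97.4 CPM in eLPre and 176 to 262 CPM in sPre libraries, which encodes CD11b, one of the lineage antigens that the gate of the study's methods excluded. The part of these other markers in the results was not tested. Both Ctrl replicate 2 libraries stood apart in carrying Y-linked RNA and almost no Xist, and calls on the 10 genes that are lost without them are given below with both values. The partner genes were not refitted without them. The labels do not say whether libraries came from separate mice. The study's methods describe the data points of its graphs as independent biological replicates, without naming these libraries. P values thus measure the spread between these samples.

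Per kilobase of exon (RPKM, CPM divided by exon length), Cdc25b was the most abundant of the 10 transcripts in Ctrl eLPre-B cells, at 154 ± 6.66 RPKM (SD, n = 2, as for all values of this kind). It was followed by Topbp1 (78.6 ± 6.87 RPKM), Clspn (52.0 ± 2.13 RPKM) and Wee1 (46.0 ± 2.66 RPKM), with no overlap of libraries between neighbours in this order. Cdc25a and Cdc25c came next at 24.0 ± 0.500 and 21.9 ± 1.87 RPKM, and Chek1, Atm and Chek2 formed a group of overlapping levels at 17.4, 16.4 and 16.4 RPKM. Atr was the least abundant at 12.0 ± 1.44 RPKM. In Ctrl sPre-B cells Cdc25b again ranked highest (81.1 ± 6.23 RPKM) and Chek1 lowest (1.08 ± 0.196 RPKM), while Atm and Atr had moved up to the third and the fourth place (13.5 and 8.53 RPKM). In cKO-labelled eLPre-B cells, Cdc25b (48.2 ± 4.42 RPKM) came behind Topbp1 (67.0 ± 5.88 RPKM) and Clspn (57.9 ± 4.14 RPKM). In cKO-labelled sPre-B cells, Cdc25b (31.0 ± 5.92 RPKM) and Topbp1 (29.6 ± 5.42 RPKM) overlapped at the top of the order.

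**Figure D1:**
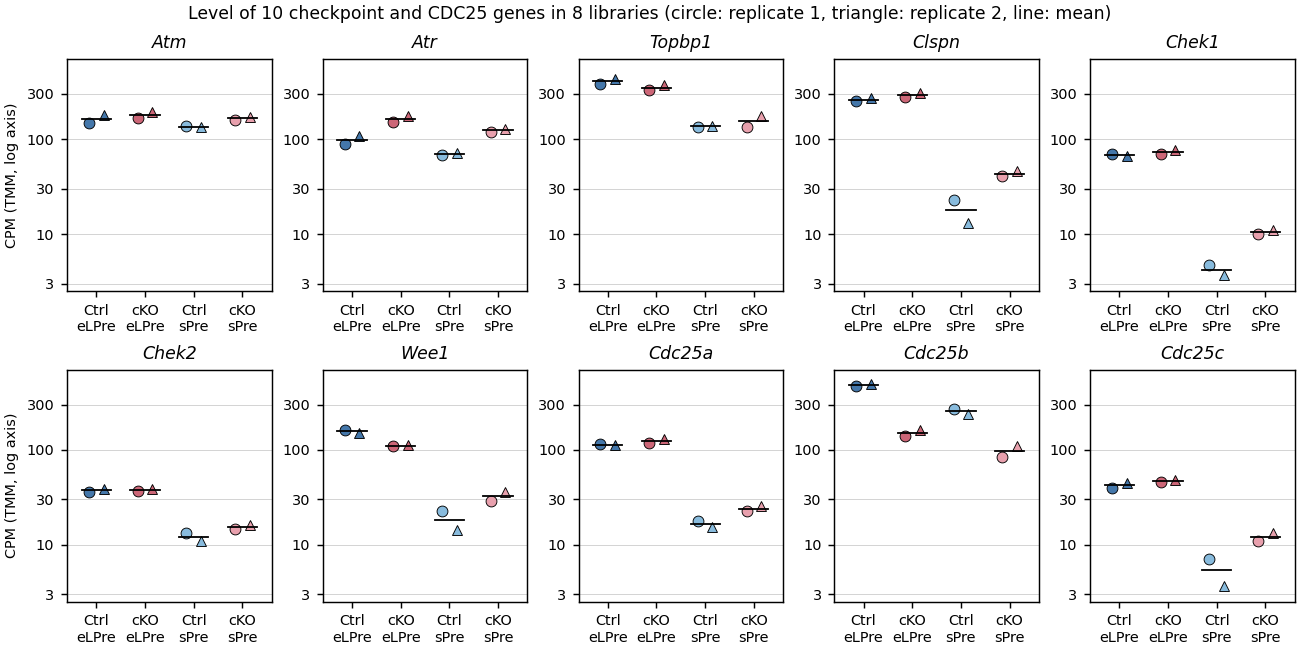
Level of each gene in CPM after TMM scaling (vertical log axis) in the 4 groups. Circles are replicate 1, triangles replicate 2, and horizontal lines the means of 2 libraries. Chek1 and Clspn show the widest gap between the stages, and Cdc25b is the panel in which the cKO-labelled libraries lie far below Ctrl at both stages.

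Atm (Entrez 11920, chr9:53437122-53536828), the kinase of the double-strand break response, was close to level over the groups. It measured 147 and 181 CPM in Ctrl eLPre-B cells, 137 and 133 CPM in Ctrl sPre-B cells, 166 and 193 CPM in cKO-labelled eLPre-B cells, and 160 and 171 CPM in cKO-labelled sPre-B cells. The libraries of the genotypes overlapped in eLPre-B cells, and their cKO-labelled counterparts lay above Ctrl in sPre-B cells. Between the stages in Ctrl the Log2FC was -0.28 (95% confidence interval -0.55 to 0.00, edgeR, adjusted P = 0.0783). This did not pass the test, but it passed without Ctrl eLPre replicate 1 (-0.36, adjusted P = 0.0302) and in the fit with the replicate block (-0.27, adjusted P = 0.0466), and it was -0.03 without both Ctrl replicate 2 libraries (adjusted P = 0.875). No other comparison of Atm passed, and between the genotypes in sPre-B cells it was 0.29 (0.01 to 0.57, adjusted P = 0.0987).

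Atr (Entrez 245000, chr9:95857597-95953217), the kinase of the replication stress response, measured 90.1 and 107 CPM in Ctrl eLPre-B cells and 152 and 175 CPM in their cKO-labelled counterparts. In sPre-B cells it measured 67.7 and 72.3 CPM in Ctrl and 120 and 130 CPM in the cKO-labelled libraries. Every library labelled cKO was above both Ctrl libraries of its stage, and the sPre-B cKO-labelled libraries were also above both Ctrl eLPre libraries. Atr was higher in the cKO-labelled libraries by a Log2FC of 0.73 ± 0.11 (SE) in eLPre-B cells and of 0.83 ± 0.11 in sPre-B cells (edgeR, adjusted P = 0.00199 and 8.96e-04). Between the stages it was lower in sPre-B cells by smaller amounts, with a Log2FC of -0.49 in Ctrl and of -0.39 in cKO-labelled libraries (edgeR, adjusted P = 0.00512 and 0.0152). The stage difference in Ctrl did not pass without both Ctrl replicate 2 libraries (-0.34, adjusted P = 0.0759), and it also failed without Ctrl eLPre replicate 2 (-0.30, adjusted P = 0.0595) or Ctrl sPre replicate 1 (-0.38, adjusted P = 0.0529). The one in cKO-labelled libraries failed without eLPre replicate 2 (-0.28, adjusted P = 0.103) or without sPre replicate 1 (-0.34, adjusted P = 0.0893). The span of Atr, introns included, overlaps that of the noncoding gene Gm16794 over 11173 bases and that of 1700065D16Rik over 286 bases. The overlap of exons was not measured. Because reads were counted without strand, reads from any exons that these genes share cannot be fully told apart.

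Topbp1 (Entrez 235559, chr9:103305167-103350428), the activator of ATR, measured 385 and 436 CPM in Ctrl eLPre-B cells and 135 and 138 CPM in Ctrl sPre-B cells. In the cKO-labelled libraries it measured 328 and 372 CPM in eLPre-B and 135 and 175 CPM in sPre-B cells. The stages did not overlap in either genotype, and the genotypes overlapped in sPre-B cells. Topbp1 was lower in sPre-B cells by a Log2FC of -1.59 ± 0.14 (SE) in Ctrl and of -1.18 ± 0.14 in cKO-labelled libraries (edgeR, adjusted P = 2.49e-05 and 1.24e-04). Neither genotype comparison passed the test, with a Log2FC of -0.23 (95% confidence interval -0.55 to 0.09) in eLPre-B cells and of 0.18 (-0.14 to 0.49) in sPre-B cells.

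Clspn (Entrez 269582, chr4:126556957-126594533), which encodes the adaptor that presents CHK1 to ATR, measured 254 and 269 CPM in Ctrl eLPre-B cells and 276 and 306 CPM in their cKO-labelled counterparts. The sPre-B values were 23.0 and 13.2 CPM in Ctrl and 40.5 and 45.9 CPM in cKO-labelled libraries. The stages were far apart in both genotypes, and within sPre-B cells the cKO-labelled libraries lay above both Ctrl libraries. The Log2FC between the stages was -3.85 ± 0.24 (SE) in Ctrl and -2.75 ± 0.23 in cKO-labelled libraries (edgeR, adjusted P = 3.87e-06 and 1.56e-05). Between the genotypes it was 1.25 ± 0.22 in sPre-B cells (edgeR, adjusted P = 0.00287), and in eLPre-B cells, where the test was not passed, it was 0.15 (95% confidence interval -0.33 to 0.64).

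Chek1 (Entrez 12649, chr9:36708482-36726658), the kinase downstream of ATR, measured 69.3 and 66.1 CPM in Ctrl eLPre-B cells and 69.1 and 76.6 CPM in their cKO-labelled counterparts. In Ctrl sPre-B cells it measured 4.75 and 3.67 CPM, from 402 and 259 counts. In cKO-labelled sPre-B cells it measured 9.98 and 11.0 CPM, from 921 and 1377 counts. The genotypes overlapped in eLPre-B cells and were separate in sPre-B cells, with both cKO-labelled libraries above Ctrl. Chek1 had the largest fall of the 10 genes between the stages in Ctrl (Log2FC = -4.00 ± 0.15, SE), and it fell less in cKO-labelled libraries (-2.79 ± 0.14; edgeR, adjusted P = 6.36e-07 and 1.69e-06). The Log2FC between the genotypes was 0.11 (95% confidence interval -0.18 to 0.39) in eLPre-B cells and 1.31 ± 0.13 in sPre-B cells (edgeR, adjusted P = 0.561 and 2.24e-04).

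Chek2 (Entrez 50883, chr5:110839800-110874140), the kinase downstream of ATM, measured 35.8 and 38.9 CPM in Ctrl eLPre-B cells and 36.4 and 38.8 CPM in their cKO-labelled counterparts. In sPre-B cells the levels were 13.1 and 11.0 CPM in Ctrl and 14.5 and 16.1 CPM in cKO-labelled libraries. Its eLPre-B libraries overlapped between the genotypes, and its sPre-B libraries lay close together without overlap. Chek2 was lower in sPre-B cells by a Log2FC of -1.63 ± 0.13 (SE) in Ctrl and of -1.29 ± 0.13 in cKO-labelled libraries (edgeR, adjusted P = 1.16e-05 and 3.78e-05). The genotypes differed by a Log2FC of 0.01 (95% confidence interval -0.27 to 0.29) in eLPre-B cells and of 0.35 (0.06 to 0.63) in sPre-B cells, neither of which passed the test (adjusted P = 0.963 and 0.0620, edgeR).

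Wee1 (Entrez 22390, chr7:110122059-110143299), which encodes the kinase that holds cyclin-dependent kinases inactive, measured 164 and 151 CPM in Ctrl eLPre-B cells and 108 and 113 CPM in their cKO-labelled counterparts. In sPre-B cells it measured 22.4 and 14.4 CPM in Ctrl and 29.0 and 36.3 CPM in cKO-labelled libraries. The genotypes were thus separate at both stages, with Ctrl on top in eLPre-B cells and the cKO-labelled libraries on top in sPre-B cells. The Log2FC between the stages was -3.09 ± 0.20 (SE) in Ctrl and -1.76 ± 0.19 in cKO-labelled libraries (edgeR, adjusted P = 5.03e-06 and 7.33e-05). In eLPre-B cells the Log2FC between the genotypes was -0.50 ± 0.19 and did not pass the test (edgeR, adjusted P = 0.0720). In sPre-B cells it was 0.83 ± 0.19 (edgeR, adjusted P = 0.0106), which no longer passed without sPre replicate 2 of the cKO-labelled libraries (0.65, adjusted P = 0.0627) or without both Ctrl replicate 2 libraries (0.51, adjusted P = 0.0565).

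Cdc25a (Entrez 12530, chr9:109875518-109893895) encodes the phosphatase that acts on CDK2 at the entry into S phase. It measured 115 and 112 CPM in Ctrl eLPre-B cells, 119 and 129 CPM in their cKO-labelled counterparts, 17.9 and 15.5 CPM in Ctrl sPre-B cells, and 22.4 and 25.5 CPM in cKO-labelled sPre-B cells. The cKO-labelled libraries lay just above Ctrl at both stages. Cdc25a was lower in sPre-B cells by a Log2FC of -2.76 ± 0.11 (SE) in Ctrl and of -2.37 ± 0.11 in cKO-labelled libraries (edgeR, adjusted P = 9.08e-07 and 1.34e-06). Its Log2FC between the genotypes was 0.13 (95% confidence interval -0.10 to 0.37) in eLPre-B cells and 0.52 ± 0.11 in sPre-B cells (edgeR, adjusted P = 0.368 and 0.00585). The latter did not pass without Ctrl sPre replicate 2 (0.39, adjusted P = 0.0522) or without both Ctrl replicate 2 libraries (0.39, adjusted P = 0.0614).

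Cdc25b (Entrez 12531, chr2:131186436-131198511) encodes the phosphatase that starts the activation of CDK1 before mitosis. It measured 467 and 497 CPM in Ctrl eLPre-B cells and 141 and 161 CPM in their cKO-labelled counterparts. Its sPre-B levels were 268 and 240 CPM in Ctrl and 84.0 and 110 CPM in cKO-labelled libraries. Every library labelled cKO lay below all 4 Ctrl libraries, so that cKO-labelled eLPre-B cells had less Cdc25b RNA than Ctrl sPre-B cells. The Log2FC between the genotypes was -1.67 ± 0.15 (SE) in eLPre-B cells and -1.39 ± 0.14 in sPre-B cells (edgeR, adjusted P = 1.25e-04 and 2.38e-04). Between the stages it fell by the smallest amount of the CDC25 genes, with a Log2FC of -0.92 ± 0.14 in Ctrl and of -0.64 ± 0.14 in cKO-labelled libraries (edgeR, adjusted P = 5.69e-04 and 0.00418).

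Cdc25c (Entrez 12532) encodes a phosphatase that activates CDK1 at mitosis. It measured 40.0 and 45.1 CPM in Ctrl eLPre-B cells and 45.9 and 48.6 CPM in their cKO-labelled counterparts. In sPre-B cells it measured 7.03 and 3.65 CPM in Ctrl and 10.8 and 13.2 CPM in cKO-labelled libraries. On a log scale the Ctrl sPre libraries differed from each other by more than replicate 1 differed from the lower library labelled cKO. The Log2FC between the stages was -2.99 ± 0.27 (SE) in Ctrl and -1.98 ± 0.26 in cKO-labelled libraries (edgeR, adjusted P = 2.49e-05 and 1.93e-04). Between the genotypes it was 1.16 ± 0.26 in sPre-B cells (edgeR, adjusted P = 0.00875), and in eLPre-B cells, where the test was not passed, it was 0.15 (95% confidence interval -0.41 to 0.71).

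Since the CDC25 phosphatases share substrates, their levels were also summed per kilobase of exon. The sum was 194 and 205 RPKM in Ctrl eLPre-B cells and 93.9 and 104 RPKM in their cKO-labelled counterparts. In sPre-B cells it was 92.9 and 81.8 RPKM in Ctrl and 37.1 and 47.3 RPKM in cKO-labelled libraries. The family sum was thus lower in the cKO-labelled libraries at both stages, although the Log2FC of Cdc25a and Cdc25c was above 0 at both. Cdc25b made up 76.8% and 77.2% of the sum in Ctrl eLPre-B cells and 48.0% and 49.5% in their cKO-labelled counterparts. In sPre-B cells it made up 92.0% and 93.7% in Ctrl and 72.2% and 74.3% in cKO-labelled libraries. These shares are a description of annotated RNA per length and were not tested.

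**Figure D2:**
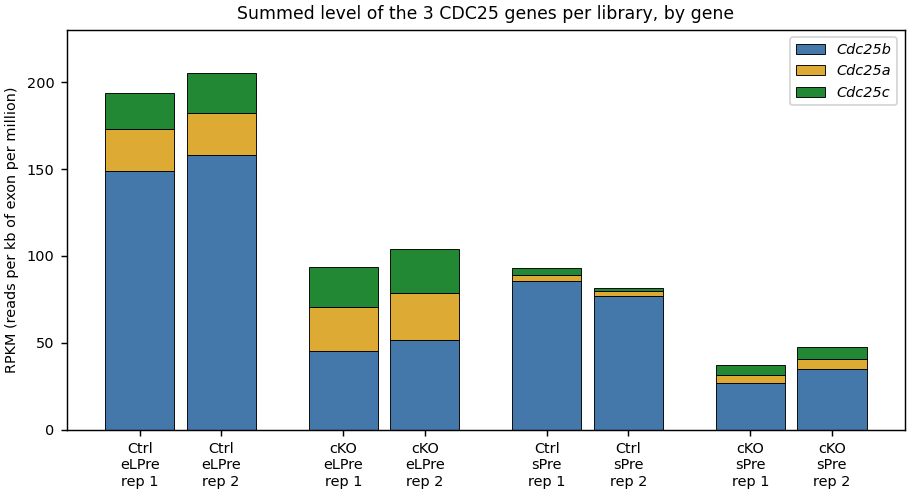
Stacked levels of Cdc25b, Cdc25a and Cdc25c per library in RPKM, with 1 bar per library from 0. The Cdc25b segment is shorter in all 4 cKO-labelled libraries than in the Ctrl libraries of the same stage, and the family sum runs from 37.1 to 205 RPKM.

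Between the stages, the genes counted at an adjusted P under 0.05 were set against all genes tested. In Ctrl, 9 of 10 were lower in sPre-B cells and 0 were higher, where 31.1% of all genes tested were lower and 29.1% were higher. The median Log2FC of the 10 genes was -2.20, against 0.02 for all genes tested, and 5 of them (Chek1, Clspn, Wee1, Cdc25c and Cdc25a) fell by a Log2FC of at least 2. In cKO-labelled libraries, again 9 of 10 were lower and 0 were higher, where 31.1% and 31.6% of all genes were lower and higher. The median was -1.53, against 0.05 for all genes, and 3 genes (Chek1, Clspn and Cdc25a) fell by a Log2FC of at least 2. Atm was the gene not counted in either genotype, and all 10 estimates were below 0 in both. In bulk RNA, fewer cells in cycle and less RNA per cell cannot be told apart. Proliferation markers (Mki67, Top2a, Mcm2, Mcm5, Pcna, Rrm2, Tyms and Birc5) moved with these results, with all 8 lower in sPre-B cells in both genotypes. Their sum was 9963 and 10199 CPM in Ctrl eLPre-B cells and 1374 and 731 CPM in Ctrl sPre-B cells, and their part in the fall of the checkpoint genes was not tested.

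**Figure D3:**
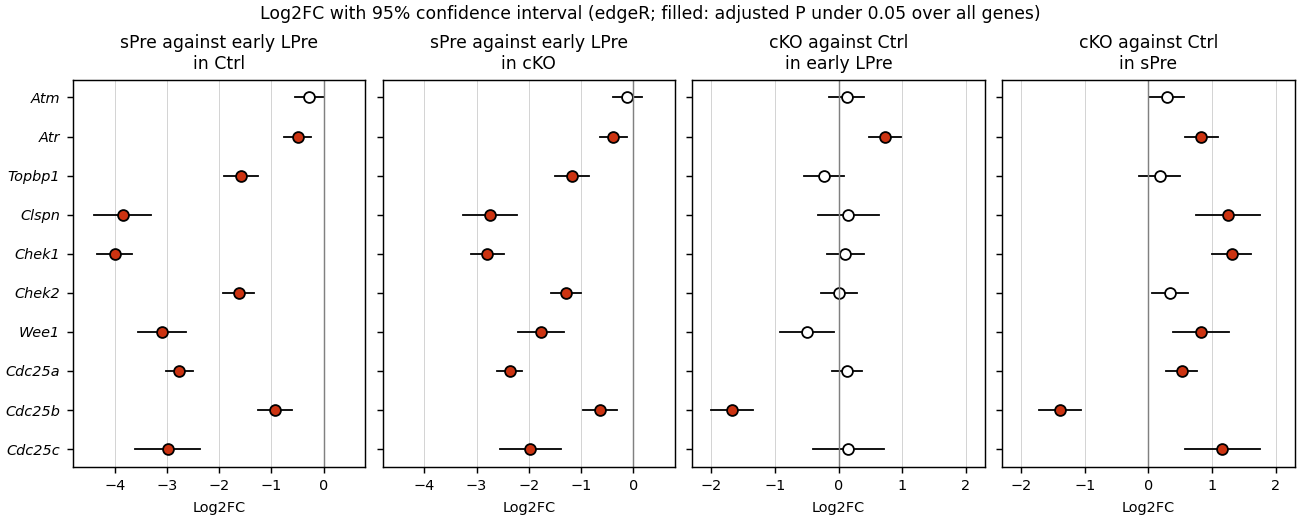
Log2FC with 95% confidence intervals for the 10 genes in the 4 comparisons between groups, from edgeR. Filled points passed an adjusted P under 0.05 over all 17700 genes and open points did not. All points of the stage comparisons lie below 0, and Cdc25b is alone on the far left of both genotype comparisons.

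Between the genotypes in eLPre-B cells, 1 of 10 genes (Atr) was higher and 1 (Cdc25b) was lower in the cKO-labelled libraries, where 14.5% of all genes tested were higher and 16.9% were lower. The median Log2FC of the 10 genes was 0.12, against -0.06 for all genes. The number lower was 2 with edgeR's likelihood-ratio test, DESeq2, no expression filter or only the 4 libraries compared, the gene added being Wee1. The proliferation markers summed to 6762 and 7113 CPM in cKO-labelled eLPre-B cells, below both Ctrl libraries, with 1 of 8 (Pcna) counted as lower (edgeR, Log2FC = -0.48, adjusted P = 0.0371). Both early LPre markers were also lower there, with Kit at 2.96 against 16.9 CPM on average (edgeR, adjusted P = 0.00387). So was 1 of 2 sPre markers, Il2ra, at 22.2 against 45.1 CPM. Of 10 B-lineage markers 4 were lower, among them Rag1, a subunit of the RAG recombinase, at 59.5 against 397 CPM (edgeR, adjusted P = 1.48e-04). The part of these markers in the results was not tested.

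Between the genotypes in sPre-B cells, 6 of 10 genes (Chek1, Clspn, Cdc25c, Atr, Wee1 and Cdc25a) were higher and 1 (Cdc25b) was lower in the cKO-labelled libraries, where 19.8% of all genes tested were higher and 14.9% were lower. The median Log2FC of the 10 genes was 0.68, against 0.01 for all genes. This comparison shares its Ctrl sPre libraries with the stage comparison in Ctrl, so a low value in those libraries enters both. Ctrl sPre replicate 2 had the lower level of Chek1, Clspn, Cdc25c, Wee1 and Cdc25a of the pair and also the lower proliferation sum (731 CPM), whereas Ctrl sPre replicate 1 (1374 CPM) lay between the cKO-labelled libraries (1280 and 1490 CPM). Without Ctrl sPre replicate 2 the Log2FC was 1.11 for Chek1, 0.87 for Clspn, 0.74 for Cdc25c, 0.85 for Atr and 0.51 for Wee1, all with an adjusted P under 0.05 (edgeR), and that of Cdc25b was -1.50. Cdc25a lost its call in that fit (0.39, adjusted P = 0.0522, edgeR), so that 5 of the 10 genes were higher. In that fit the remaining Ctrl library is assumed to vary as the other groups do. Markers of mature B cells also moved with the genotype in sPre-B cells, with 3 of 4 (Fcer2a, Cr2 and Ighd) counted as higher. The 4 markers summed to 371 to 603 CPM against 226 to 300 CPM in Ctrl, and none of them was at 0 in any library. Ms4a1, the marker not counted, entered that sum with overlapping levels, at 255 and 96.9 CPM against 84.6 and 110 CPM in Ctrl. Fcer2a differed between the cKO-labelled sPre libraries (83.8 and 29.9 CPM). Of 10 B-lineage markers, 2 were counted as higher and 3 as lower. The part of the proliferation, mature B cell and B-lineage markers in these differences was not tested.

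The genotype effects of the stages were compared with an interaction term. For Chek1 the effect in sPre-B cells exceeded that in eLPre-B cells by 1.21 ± 0.18 (SE, log2; edgeR, adjusted P = 0.0142). The corresponding difference for Wee1 was 1.33 ± 0.27 (edgeR, adjusted P = 0.0330). At an adjusted P under 0.05, 2 of 10 genes were thus called with a more positive effect in sPre-B cells and 0 with a more negative one, where 2.64% and 1.6% of all genes tested were called in these directions. All 10 estimates were above 0, against a median of 0.07 for all genes. For Clspn (1.10, 95% confidence interval 0.41 to 1.79) and Cdc25c (1.01, 0.20 to 1.82) the adjusted P was 0.0808 and 0.152 (edgeR). Clspn passed with edgeR's likelihood-ratio test, DESeq2 or no filter (adjusted P = 0.0129, 0.0068 and 0.0058), and Cdc25c with DESeq2 or no filter (0.0438 and 0.029). When a library was left out the estimates of Clspn and Cdc25c ranged from 0.68 to 1.48 and from 0.54 to 1.49. Without both Ctrl replicate 2 libraries they were 0.625 and 0.44. Cdc25b differed by 0.28 (-0.17 to 0.74, and 0.07 to 0.47 over the fits without a library) and Atr by 0.10 (-0.26 to 0.47), neither of which passed the test. Without both Ctrl replicate 2 libraries neither Chek1 (0.98, adjusted P = 0.0814) nor Wee1 (1.02, adjusted P = 0.121) passed. Chek1 also failed without eLPre replicate 2 of Ctrl (adjusted P = 0.0525) or without eLPre replicate 1 of the cKO-labelled libraries (adjusted P = 0.0723), and Wee1 passed in 1 of 8 fits that left out a library, the one without Ctrl sPre replicate 1.

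The partners of these genes were read from lists set by name, and their counts stand against the shares of all genes tested. Between the stages 31.1% of all genes were lower in each genotype, and 29.1% were higher in Ctrl and 31.6% in cKO-labelled libraries. Of 12 genes of ATR activation and fork sensing, 10 were lower in sPre-B cells of Ctrl and 9 were lower and 1 higher in their cKO-labelled counterparts. Timeless and Tipin, which protect replication forks, and Rpa2, a subunit of the single-strand binding protein RPA, fell the most in Ctrl (Log2FC = -3.79, -3.31 and -2.93). In cKO-labelled eLPre-B cells 1 gene was higher and 2 were lower than in Ctrl, which is near the 14.5% and 16.9% of all genes. The higher gene was Atrip, the obligate partner of ATR, at a Log2FC of 1.13 (edgeR, adjusted P = 1.38e-04). It rose from 25.8 to 56.3 CPM on average, and like Atr it was also higher in sPre-B cells, from 22.1 to 49.6 CPM (Log2FC = 1.16, edgeR, adjusted P = 1.02e-04). In sPre-B cells 7 genes of this list were higher and 2 lower, against 19.8% and 14.9% of all genes, among them Rpa2 (0.81) and Hus1 (-0.46), a subunit of the 9-1-1 clamp.

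Of 10 genes of ATM activation and break signalling, 8 were lower in sPre-B cells in each genotype and 1 was higher in Ctrl. Between the genotypes, 5 were higher and 0 lower in cKO-labelled eLPre-B cells (14.5% and 16.9% of all genes), and 7 were higher and 0 lower in sPre-B cells (19.8% and 14.9% of all genes). Trp53bp1 and Mre11a, which act at double-strand breaks, led in eLPre-B cells (Log2FC = 0.77 and 0.76, edgeR, adjusted P = 3.38e-04 and 4.78e-04). Brca1 and Nbn, of break repair and of the MRN complex that activates ATM, led in sPre-B cells (0.95 and 0.84, edgeR, adjusted P = 0.00116 and 0.00626). Atm and Chek2 themselves did not pass either genotype comparison.

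Of 8 genes that control WEE1 and CDC25, 7 were lower in sPre-B cells of Ctrl and 5 in their cKO-labelled counterparts, against 31.1% of all genes in each. In eLPre-B cells 3 were lower in the cKO-labelled libraries and 0 higher (16.9% and 14.5% of all genes), namely the checkpoint phosphatase Ppm1d (Log2FC = -0.64) and the substrate receptors Btrc (-0.61) and Fbxw11 (-0.31), which direct phosphorylated WEE1 and CDC25A to degradation. In sPre-B cells 4 were higher and 2 lower (19.8% and 14.9% of all genes), led by Bora (1.04, edgeR, adjusted P = 0.00137), the cofactor through which Aurora A activates PLK1. Of 7 genes for the CDK and cyclin targets, all were lower in sPre-B cells in both genotypes. Between the genotypes, 2 of them (Cdk2 and Ccnb2) were lower and 0 higher in cKO-labelled eLPre-B cells, and 2 (Ccne1 and Ccne2) were higher and 1 (Cdk2) lower in sPre-B cells. Cdk2 was lower in the cKO-labelled libraries at both stages (-0.36 and -0.50, edgeR, adjusted P = 0.0119 and 0.00243), while Ccne1, its S phase cyclin, was higher in sPre-B cells (1.14, edgeR, adjusted P = 0.00280). Of 4 genes of the p53 arm, 2 were higher and 1 lower in sPre-B cells in each genotype. In cKO-labelled eLPre-B cells 1 gene was lower than in Ctrl and 0 higher, namely Mdm2, which encodes the ubiquitin ligase of p53 (Log2FC = -0.42). In sPre-B cells 1 was higher and 0 lower. This was Cdkn1a, the CDK inhibitor p21, which was higher in cKO-labelled sPre-B cells by a Log2FC of 2.26, at 19.3 against 4.02 CPM (edgeR, adjusted P = 4.07e-05). Its interaction of stage and genotype was 1.99 (edgeR, adjusted P = 0.00384).

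**Figure D4:**
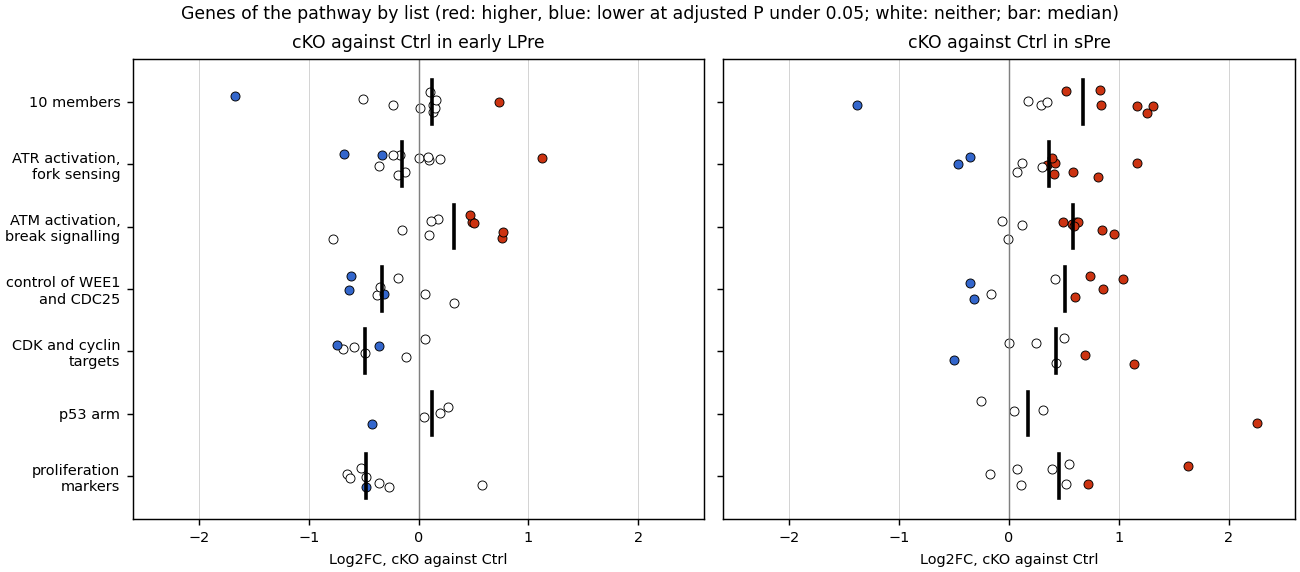
Log2FC between the genotypes in eLPre-B cells (left) and sPre-B cells (right) for the 10 genes and the lists of their partners, 1 point per gene, with a bar at the list median. Red points were higher and blue points lower at an adjusted P under 0.05, and white points were neither. In sPre-B cells the median of the 10 genes is 0.68, with Cdc25b far to the left and Cdkn1a of the p53 arm far to the right.

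The likeness of the 10 genes over the 8 libraries was measured as the root mean square difference of their centred log2 CPM values, as a description. Chek1 and Clspn were the closest pair (0.123), and Clspn was the gene nearest to Chek1 among all named genes tested. They were followed by Chek2 and Topbp1 (0.150) and by Wee1 and Cdc25a (0.284), while Chek1 and Cdc25b were the farthest apart (1.74). Among all genes tested, Clspn lay nearest to Ticrr (0.0822), a gene of replication origin firing, Cdc25a to Pole2 (0.0781), a DNA polymerase epsilon subunit, and Cdc25c to the spindle gene Hmmr (0.0435). Wee1 lay nearest to the mitotic kinesin gene Kifc1 (0.0765). Cdc25b had the least close neighbour of the 10 genes, Ptgr1 at 0.144. The nearest gene of Atm was Ltn1 (0.0571), and those of Chek2 and Topbp1 were Casp8ap2 (0.0621) and Suz12 (0.102).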

How the data were processed

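Libraries depleted of rRNA were made with a directional kit from sorted B cells of 2 stages. Per the labels and the study's methods, the authors used Trim Galore, HISAT2 (mm10, paired-end, strand not used) and featureCounts and deposited raw counts per gene; versions are not given in the sources used here. RefSeq gave names to 25275 of the Entrez identifiers in the table. With edgeR 4.0.16 in R 4.3.3, counts were scaled by TMM factors of 0.862 to 1.09 and filtered by expression in the groups, and 4 group means were fitted to 8 libraries in 1 model. Comparisons and the interaction were tested by two-sided quasi-likelihood F tests, and P was adjusted over 17700 genes by the Benjamini-Hochberg method. Log2FC carries edgeR's prior count, and its standard error was derived from F. RPKM used GENCODE exon lengths. The method was tested on simulated data.

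The genes and lists were chosen with earlier results of these data known. Named were all 10 genes, up to 3 called genes per list and comparison, and the genes with the nearest profiles, and not all of these are printed. Alternatives were median-ratio factors, the likelihood-ratio test, DESeq2 1.42.0, no filter, a replicate block, fits without immunoglobulin genes, without each library or without both Ctrl replicate 2 libraries, and fits of 4 libraries. Libraries of Igh WT mice were not analysed here.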

Additional observations from a re-analysis of the deposited data

Results flagged for a closer look

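The effect of genotype on Chek1 differed between the stages by 1.21 on the log2 scale (sPre-B minus early LPre-B cells), by the test of the interaction of stage and genotype in edgeR. For Wee1 the corresponding difference was 1.33, with an estimate below 0 in early LPre-B cells that did not pass the test by itself and one above 0 in sPre-B cells that did. Each rests on 2 libraries per group and is lost without both Ctrl replicate 2 libraries. Wee1 was also lost in 7 of 8 fits that left out a single library (edgeR, adjusted P = 0.0511 to 0.113), and Chek1 in those without Ctrl eLPre replicate 2 (adjusted P = 0.0525) or cKO-labelled eLPre replicate 1 (adjusted P = 0.0723).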

How the results depend on the processing

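Of 790 values for single genes under alternatives, 746 kept their direction and their side of the threshold, 20 lost their call, 15 gained one and 9 changed sign, none of the latter among called values. Members lower in cKO-labelled eLPre-B cells numbered 1, but 2 with the likelihood-ratio test, DESeq2, no filter or only the 4 libraries compared, and 1 to 2 when a library was left out. Members called above 0 in the interaction (adjusted P under 0.05) numbered 2, but 4 with DESeq2, 4 without a filter, 0 without both Ctrl replicate 2 libraries, and 0 to 4 when a library was left out. The added genes were Clspn and Cdc25c. Clspn was also called with edgeR's likelihood-ratio test (1.10, adjusted P = 0.0129). All genes called above and below 0 in the interaction numbered 467 and 283, but 1004 and 504 with the likelihood-ratio test, 1045 and 725 with DESeq2, 1078 and 497 without a filter and 59 and 33 without both Ctrl replicate 2 libraries. When a library was left out they ranged from 84 to 569 and from 42 to 333. All genes lower and higher in the other comparisons stayed within 1.5 times except when a library was left out, where the lowest numbers were 1634 higher and 1289 lower in eLPre-B cells and 2258 higher and 1366 lower in sPre-B cells. A lone library of a group is assumed to vary as the other groups do. The causes were not tested.

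Signs changed among values that were not called. Over the fits that left out a library, Chek2 in eLPre-B cells ranged from -0.033 to 0.12 (without replicate 2 of the cKO-labelled and of the Ctrl group) and Topbp1 in sPre-B cells from -0.025 to 0.35 (without cKO-labelled replicate 2 and 1). In the interaction, Atm ranged from -0.082 to 0.27 and Atr from -0.11 to 0.21, both lowest without Ctrl eLPre replicate 2, and without both Ctrl replicate 2 libraries they were -0.10 and -0.064. By CPM without length, the CDC25 shares of Cdc25a, Cdc25b and Cdc25c were 17.8%, 75.6% and 6.67% in Ctrl eLPre-B cells and 38.5%, 46.8% and 14.7% in their cKO-labelled counterparts. Those of Cdc25a and Cdc25c were 6.03% and 1.90% in Ctrl sPre-B cells and 18.1% and 9.04% in their cKO-labelled counterparts.

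Same-numbered libraries of the groups compared deviated together with correlations of 0.395, 0.254, 0.155 and 0.0858 across genes, with only 2 pairs per comparison and no label that ties the numbers to a mouse, so the numbers were not taken as pairs. With the replicate block, the stage difference of Atm in Ctrl passed (-0.27, adjusted P = 0.0466, edgeR), and no other call on the 10 genes changed. Scaling moved the median of all genes by less than 0.1. At these depths the 10 genes had at least 257 counts in every library, and depth set no limit on them.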
